A study of Mus musculus with 10 samples.

Results

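Malat1, Neat1, Meg3, Rian, Mirg, Kcnq1ot1, Miat and Snhg11 are long noncoding RNAs that are retained in the nucleus, transcribed from imprinted loci, or both, and most of them are abundant. They were taken as the rows of the count table whose Ensembl gene identifiers carry these symbols in the mouse GENCODE M21 annotation, 8 of 55416 genes. Their identifiers are ENSMUSG00000092341 for Malat1, ENSMUSG00000092274 for Neat1, ENSMUSG00000021268 for Meg3, ENSMUSG00000097451 for Rian, ENSMUSG00000097391 for Mirg, ENSMUSG00000101609 for Kcnq1ot1, ENSMUSG00000097767 for Miat and ENSMUSG00000044349 for Snhg11. All 8 were among the 20550 genes that passed the filter on low counts. The study asked which RNAs of the mouse pituitary come down with the RNA-binding proteins Musashi1 and Musashi2, by RNA immunoprecipitation and sequencing. For each lysate, 6 pituitaries from mice 8 to 10 weeks old were combined; one portion went to a mixture of antibodies against both proteins (Musashi IP) and an equal portion to rabbit IgG as the control. The mice were sighted FVB animals of the strain FVB.129P2-Pde6b+Tyrc-ch/Ant, and no allele or agent was varied between the groups. Lysates 2, 5 and 6 were female and lysates 3 and 7 were male, which gave 5 IgG and 5 Musashi IP libraries paired by lysate. The protocol also covers another male lysate, which is not analysed here.

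Musashi proteins bind short sequence motifs in RNA, are best known for acting on the translation of mRNAs in the cytoplasm, and occur in stem and progenitor cells as well as in some differentiated cells. Malat1 gathers in nuclear speckles, bodies rich in splicing factors, and Neat1 is the scaffold of paraspeckles, which hold RNA-binding proteins such as NONO and SFPQ. Meg3, Rian and Mirg are read from the maternal chromosome at the Dlk1-Dio3 locus, where Rian hosts small nucleolar RNAs (snoRNAs) and Mirg hosts microRNAs; loss of the human MEG3 transcript is a known feature of some pituitary tumours. Kcnq1ot1 is an unspliced antisense RNA from the paternal chromosome that silences neighbouring genes in cis. Miat is a nuclear RNA of neurons and other cells that binds splicing factors, and Snhg11 is a host gene of snoRNAs.

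The libraries held 6673425 to 13019326 counts. Levels are given as CPM, counts scaled to a common library total, and 1 count equalled 0.0768 to 0.150 CPM. Xist, transcribed from the inactive X chromosome, had at least 29638 counts in each female library and at most 56 in each male one, which fits the sex labels. Of 11 markers of pituitary hormone cells, none was at 0, and their summed level ran from 13634 to 52066 CPM in IgG and from 15093 to 40587 CPM in Musashi IP. The Musashi IP library of lysate 6 stood apart. It was the deepest, its TMM factor (the scaling factor of edgeR) was 0.783 against 0.944 to 1.11 in the other 9 libraries, and its deviations from the group mean correlated at only 0.19 with those of its IgG partner. The antibody difference of each of the 8 RNAs is therefore given with and without lysate 6.

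The sequences bear on whether these RNAs carry the letters that Musashi proteins are known to bind. The motif was searched as GTAGT or ATAGT, as GTTAGT or ATTAGT, and as GTTTAGT or ATTTAGT, on the transcript strand only and with overlapping matches counted, in the longest GENCODE M21 transcript of each gene. Among 2685 other tested long noncoding genes, 75.1% held at least 1 match, with a median of 1.29 matches per kb; of the 456 of them with at least 3000 bases, 99.6% did, with a median of 1.64. Rian had the densest motifs of the 8, with 34 matches in 8089 bases (4.20 per kb), more than 96.4% of the other long noncoding genes. Kcnq1ot1 had 196 in 93092 bases (2.11 per kb), Snhg11 12 in 5864 (2.05), Malat1 14 in 6983 (2.0) and Neat1 38 in 20771 (1.83). Meg3 had 15 in 14548 bases (1.03 per kb), Miat 7 in 9163 (0.76) and Mirg 2 in 3822 (0.52). Averaged over all annotated transcripts, Rian was still the densest at 2.87 per kb. Kcnq1ot1, with 1 transcript, had 2.11, Neat1 1.55, Malat1 1.02, Meg3 0.61, Snhg11 0.60, Mirg 0.48 and Miat 0.26. The 50-base window with most matches is given here, as DNA letters of the transcript strand with each match in capitals, for the 4 RNAs whose level later differed between antibodies.
Malat1 (chromosome 19, minus strand, bases 393 to 442 of Malat1-201): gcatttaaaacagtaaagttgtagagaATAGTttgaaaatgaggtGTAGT
Rian (chromosome 12, plus strand, bases 2831 to 2880 of Rian-201): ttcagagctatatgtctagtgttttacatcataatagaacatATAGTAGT
Mirg (chromosome 12, plus strand, bases 284 to 333 of Mirg-204): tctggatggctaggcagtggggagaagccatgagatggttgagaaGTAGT
Kcnq1ot1 (chromosome 7, minus strand, bases 92343 to 92392 of Kcnq1ot1-201): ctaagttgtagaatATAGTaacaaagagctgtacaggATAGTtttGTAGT
The Kcnq1ot1 window holds 3 matches, those of Malat1 and Rian 2 each (in Rian they overlap), and that of Mirg 1. A match of letters is a description of the annotated sequence and is not a measured binding site.

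Malat1 was the gene with most CPM in each of the 10 libraries, ahead of the hormone mRNAs, Meg3 ranked between 3 and 5, Rian between 4 and 8, and Kcnq1ot1 between 8 and 37. Per kb of annotated exon, Malat1 stood at 6650 ± 948 CPM (mean ± SD, n = 5 IgG libraries), Meg3 at 586 ± 146, Rian at 397 ± 63.8 and Mirg at 109 ± 14.0. Miat followed at 27.8 ± 7.33, Kcnq1ot1 at 26.3 ± 2.60, Neat1 at 18.4 ± 2.61 and Snhg11 at 5.68 ± 2.03. In that order, the ranges over the IgG libraries overlapped for Meg3 and Rian and for Miat and Kcnq1ot1, and for no other neighbouring pair. Among 2693 tested long noncoding genes (Snhg11, which GENCODE M21 files as protein-coding, included), Malat1, Meg3, Rian and Mirg ranked 1, 3, 4 and 9 per length, Miat 55, Kcnq1ot1 62, Neat1 132 and Snhg11 861. Level per length spreads reads over the union of all annotated exons, 20771 bases for Neat1, whose short isoform covers only its 5′ end. These levels are of RNA carried down in precipitates, and none of the 10 libraries is from unprecipitated lysate. The order and the ranks therefore need not be those of expression in the pituitary. A lower level can reflect less recovery, fewer expressing cells or less RNA per cell, and these cannot be told apart.

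The main comparison asked which RNAs came down with the Musashi antibodies above or below IgG. Of the 8, 4 were lower in Musashi IP and none was higher: Malat1, Rian, Mirg and Kcnq1ot1 had log2 differences between -0.36 and -0.51. The lowered share in the whole table was 8.4% of 20550 genes tested, and 18.5% were higher (edgeR quasi-likelihood test with the lysate as a block, Benjamini-Hochberg adjusted p under 0.05). The median log2 difference of the 8 was -0.37, against -0.28 for 2692 long noncoding genes, -0.07 for all genes tested and 0.09 for 14197 protein-coding genes. Among the 74 long noncoding genes with at least 50 CPM on average (Snhg11 is below that level) 32 were lower (43.2%) and 8 higher. All differences are relative to the other RNAs of a library, and the amount of RNA recovered per precipitate is not given in the sources used here.

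**Figure D1:**
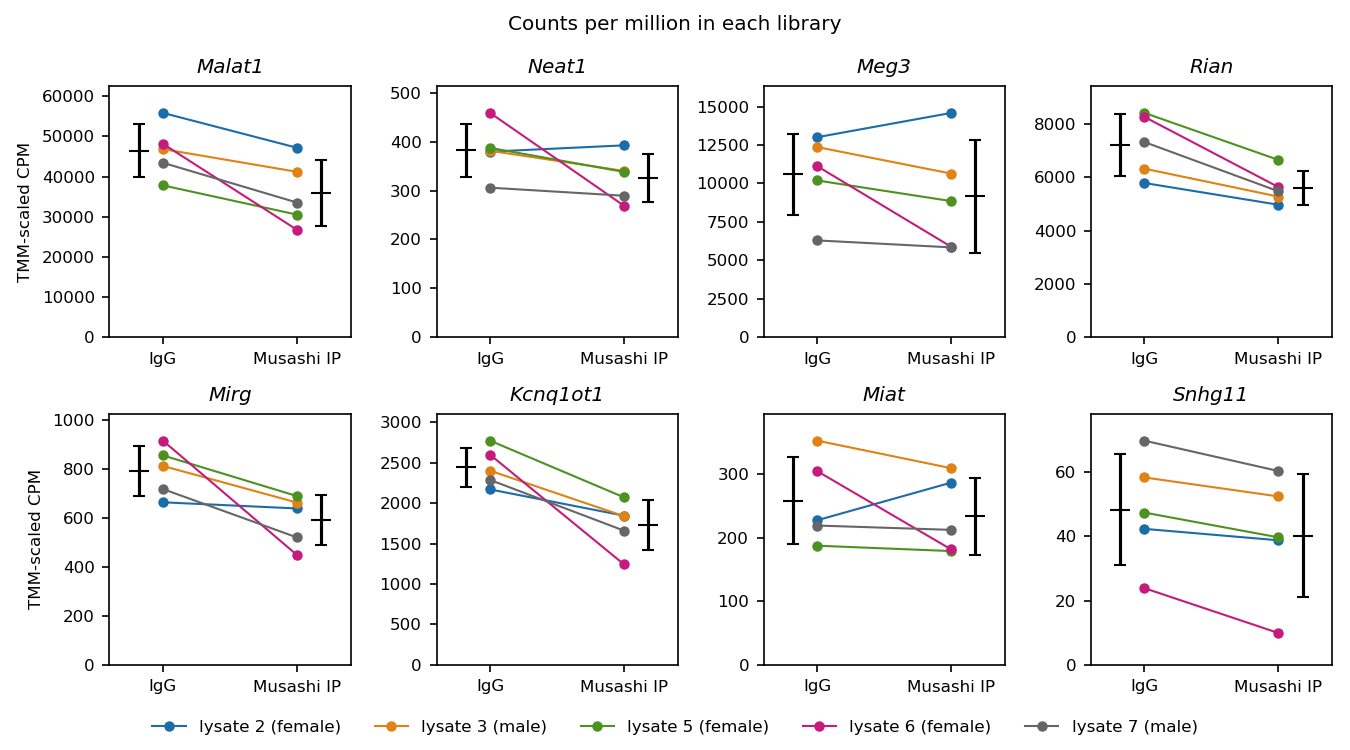
TMM-scaled CPM (vertical axes, from 0) of each long noncoding RNA in the IgG and Musashi IP libraries; lines join the libraries of a lysate, and black bars are mean and SD (n = 5). Malat1, Rian, Mirg, Kcnq1ot1 and Snhg11 are lower in Musashi IP in all 5 lysates, while Neat1, Meg3 and Miat are higher in lysate 2.

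Malat1, the speckle RNA, had 55872, 46860, 37819, 48171 and 43450 CPM in the IgG libraries of lysates 2, 3, 5, 6 and 7. Its Musashi IP values were 47194, 41198, 30530, 26762 and 33543 CPM in the same order. Every Musashi IP library was below its IgG partner, although the ranges of the groups overlapped because lysate 2 was high and lysate 5 low with both antibodies. The log2 difference was -0.39 ± 0.10 (estimate ± SE), a 23.8% lower level (adjusted p = 0.0252). Without lysate 6 it was -0.28 (adjusted p = 0.00251). Malat1 lost its call without lysate 5 (adjusted p = 0.145) and without lysate 7 (0.0964).

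Neat1, the paraspeckle scaffold from the locus next to Malat1 on chromosome 19, had 380, 382, 388, 459 and 306 CPM in IgG and 393, 340, 338, 269 and 290 in Musashi IP (lysates 2, 3, 5, 6 and 7). It was lower in 4 of 5 lysates, and lysate 6 went from the highest IgG value to the lowest Musashi IP value. The log2 difference of -0.23 ± 0.12 did not pass the threshold (adjusted p = 0.177), and was -0.10 without lysate 6 (0.326). The Malat1 ratio was below that of Neat1 in 5 of 5 lysates, by 0.16 ± 0.13 on the log2 scale (mean ± SD). The exact two-sided sign-flip test of that difference gave p = 0.0625, the smallest 5 lysates allow, and 0.194 after adjustment over all 28 pairs of the 8 RNAs.

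mRNAs of paraspeckle proteins moved in both directions, where 18.5% of all 20550 genes tested were higher and 8.4% lower. Of 15 paraspeckle protein genes tested, 2 were higher, 3 lower and 10 did not pass, with a median of -0.20. Nudt21, a subunit of the cleavage factor that sets polyadenylation sites, rose 2.65-fold from 29.6 ± 4.18 to 81.9 ± 30.5 CPM (adjusted p = 0.00343). Nono, a core paraspeckle protein, rose 1.54-fold (adjusted p = 0.0166). Of 14 genes for speckle and Malat1-associated proteins, none was higher and 2 were lower. These were the splicing coactivator Srrm1 at -0.39 ± 0.09 (adjusted p = 0.0187) and the splicing regulator Tra2a at -0.30 ± 0.09 (0.0371). The list median was -0.06. The calls of Srrm1 and Tra2a were lost without lysate 5 and when libraries were scaled on long noncoding genes.

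At the Dlk1-Dio3 locus on chromosome 12, Meg3 is the first of the maternally expressed RNAs. Its IgG values were 13006, 12362, 10191, 11119 and 6292 CPM, and its Musashi IP values were 14585, 10638, 8848, 5876 and 5840 CPM (lysates 2, 3, 5, 6 and 7). Lysate 2 was highest and lysate 7 lowest with either antibody. Meg3 was higher in Musashi IP in lysate 2 and lower in the other 4, so that the log2 difference of -0.25 ± 0.14 did not pass the threshold (adjusted p = 0.191). Without lysate 6 it was -0.09 (adjusted p = 0.372).

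Rian, the snoRNA host that follows Meg3, had 5793, 6332, 8427, 8277 and 7332 CPM in IgG against 4976, 5282, 6661, 5640 and 5482 CPM in Musashi IP. It was lower in all 5 lysates, and its lysate ratios were the least spread of the 8 (SD 0.13 on the log2 scale, against 0.26 to 0.48 in the others). The difference was -0.36 ± 0.08 (adjusted p = 0.0133), and -0.31 without lysate 6 (0.00255). A correction for the length of all annotated exons together (18234 bases for Rian) and the GC content of the longest transcript took Rian to -0.04 (adjusted p = 0.752). The longest Rian transcript has 35.8% GC. The call was also lost without lysate 5 (adjusted p = 0.128) and without lysate 7 (0.0756).

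Mirg, the microRNA host at the far end of the array, had 663, 811, 854, 914 and 717 CPM in IgG and 638, 662, 689, 448 and 520 CPM in Musashi IP. It was lower in every lysate, least in lysate 2 and most in lysate 6. The difference was -0.43 ± 0.13 (adjusted p = 0.0426). It was -0.28 without lysate 6 (adjusted p = 0.0193) and larger, at -0.65, after the length and GC correction (0.0192). Without lysate 5 or lysate 7 the call was lost (adjusted p = 0.154 and 0.0936).

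The proportions of the 3 neighbours varied between lysates. The level of Meg3 per kb of exon was 2.26, 1.97, 1.22, 1.35 and 0.865 times that of Rian in the IgG libraries of lysates 2, 3, 5, 6 and 7. In Musashi IP the ratios were 2.95, 2.03, 1.34, 1.05 and 1.07. Lysate 2 was highest and lysates 6 and 7 lowest in Musashi IP, and neither sex held the high values. The Rian to Mirg ratio lay between 3.12 and 4.09 in IgG and between 3.12 and 5.03 in Musashi IP, where lysate 6 was the highest (3.62 in its IgG library). Relative to Mirg, Meg3 was higher in Musashi IP in 5 of 5 lysates, by 0.17 ± 0.12 on the log2 scale (mean ± SD, exact p = 0.0625, adjusted p = 0.194 over 28 pairs).

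**Figure D2:**
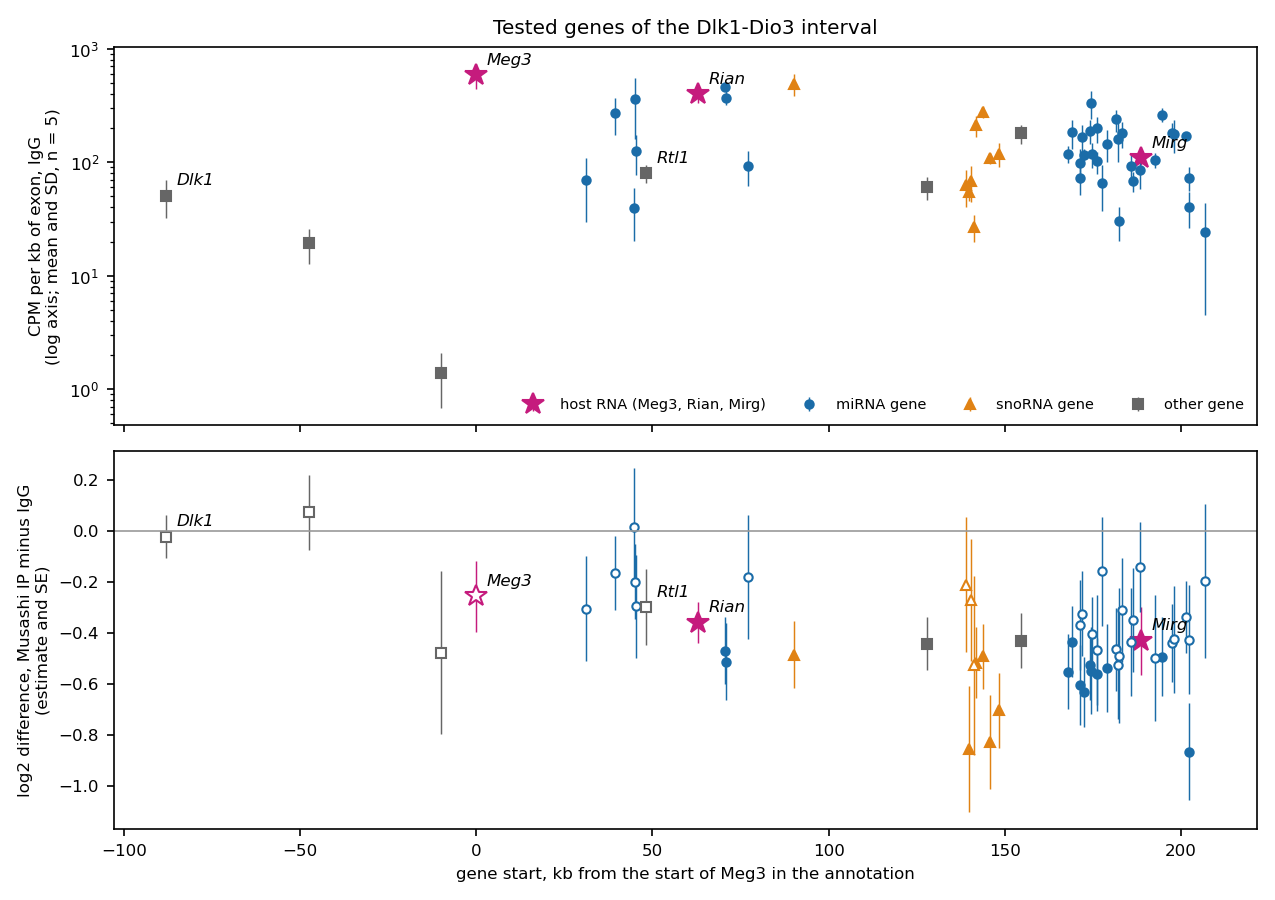
Tested genes between Dlk1 and the end of Mirg by distance of their start from that of Meg3 (horizontal axis, kb): level in IgG per kb of exon (top, log axis, mean and SD, n = 5) and log2 difference between Musashi IP and IgG (bottom, estimate and SE; filled symbols have adjusted p under 0.05). From Rian on, all tested genes lie below 0, while Dlk1 lies at -0.02.

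The genes around these hosts were read along the locus, a view chosen after the values were seen. Of 77 microRNA and snoRNA genes between Dlk1 and Dio3, 45 had enough counts to be tested; 18 of these were lower, none was higher, and 44 had a negative log2 difference (median -0.46). Between Meg3 and Rian 0 of 5 were lower (median -0.20). Between Rian and Mirg 13 of 28 were lower (-0.49), inside Rian 3 of 4 (-0.48) and inside Mirg 2 of 8 (-0.43). Small noncoding genes as a class had a median of -0.46 over 350 tested, of which 70 were lower. After the length and GC correction 0 of the 45 were called lower, and without lysate 5, 6 or 7 the number was 1, 14 or 3.

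The protein-coding neighbours did not pass the test. Dlk1, which encodes a secreted and membrane-bound regulator of differentiation and is read from the paternal chromosome, had a difference of -0.02 ± 0.08 (adjusted p = 0.858), and Rtl1, a retrotransposon-derived gene, one of -0.30 ± 0.15 (0.159). Between Rian and Mirg, the TEC locus Gm37899 (a class that GENCODE marks as still to be experimentally tested) and the long noncoding gene B830012L14Rik were lower, at -0.44 ± 0.10 (adjusted p = 0.0165) and -0.43 ± 0.11 (0.0206); they were named after their values were seen. At the far end Dio3, a thyroid hormone deiodinase gene, had at most 37 counts in a library and was not tested.

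The microRNA genes inside the hosts with the largest called differences were Mir412 (-0.86 ± 0.19, adjusted p = 0.0136) and Mir453 (-0.49 ± 0.16, 0.0462) in Mirg and Mir1188 (-0.51 ± 0.15, 0.0376) in Rian. Mir412 rested on 10 to 36 counts per library, Mir453 on 110 to 206 and Mir1188 on 214 to 408. In a total RNA library such counts cannot be told apart from reads of the host transcript, so they do not measure the mature microRNAs. Their mature sequences from RefSeq (GRCm38.p6, 5′ to 3′, seed bases 2 to 8 in capitals) are shown with miR-496a-5p, also from Mirg, which has the same seed as miR-453.
miR-412-5p: uGGUCGACcagcuggaaaguaau
miR-412-3p: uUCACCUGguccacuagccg
miR-453: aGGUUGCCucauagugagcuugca
miR-496a-5p: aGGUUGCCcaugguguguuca
miR-1188-5p: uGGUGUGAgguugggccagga
miR-1188-3p: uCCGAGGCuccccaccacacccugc
RefSeq held 26 mature sequences for 14 of the 15 microRNA genes annotated inside Mirg and 6 for 3 of the 4 inside Rian, and the seed GGUUGCC was the only one that occurred more than once among them. Mir496a itself had a difference of -0.42 and did not pass the test (adjusted p = 0.155).

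Kcnq1ot1 differed most from IgG of the 8. Its IgG values were 2170, 2402, 2773, 2599 and 2287 CPM, and its Musashi IP values 1845, 1839, 2072, 1242 and 1660 CPM (lysates 2, 3, 5, 6 and 7). All Musashi IP libraries were below all IgG libraries, which was the case for 1.98% of the genes tested and for no other of the 8. The log2 difference was -0.51 ± 0.12, a 29.9% lower level (adjusted p = 0.0164), and -0.37 without lysate 6 (0.00129). Without lysate 5 the call was lost (adjusted p = 0.0839). Kcnq1ot1 is annotated as a single transcript of 93092 bases, and the length and GC correction took it to -0.03 (adjusted p = 0.821).

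Kcnq1, which lies on the opposite strand of the same region and encodes a potassium channel, had 5.96 CPM in IgG and 5.99 in Musashi IP and did not pass the test (-0.02, adjusted p = 0.941). The counting program's strand setting is not given in the sources used here, so reads of the opposite strands may not be told apart. Of the 8 other genes of the domain that were tested, 3 were higher and none lower. Cdkn1c, a cell cycle inhibitor that Kcnq1ot1 is known to silence on the paternal chromosome, rose 3.97-fold from 1.60 ± 0.74 to 6.52 ± 2.53 CPM (adjusted p = 0.00857). Its lowest IgG value was 0.47 CPM. Both RNAs were recovered from portions of the same lysates, so their opposite differences do not measure expression or silencing. Nap1l4, a histone chaperone gene, rose 1.53-fold (adjusted p = 0.0131) and Osbpl5, an oxysterol-binding protein gene, 1.29-fold (0.0347), a call that was lost without lysates 3, 5 or 7 in turn. Over all genes tested, 18.5% were higher and 8.4% lower. Beyond this domain, 12 of 33 other imprinted genes were higher and 3 lower, with a median of 0.19. The highest were Asb4 (4.86-fold), an ankyrin repeat gene, Peg10 (3.17-fold), a retrotransposon-derived gene, and Nnat (2.64-fold), which encodes a small membrane proteolipid.

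Miat had 227, 353, 187, 305 and 219 CPM in IgG and 287, 309, 179, 181 and 212 CPM in Musashi IP (lysates 2, 3, 5, 6 and 7). It was higher in Musashi IP in lysate 2 and lower in the others, and the ranges of the groups overlapped. The log2 difference of -0.14 ± 0.14 was the smallest of the 8 (adjusted p = 0.460) and was 0.01 without lysate 6. Kcnq1ot1 and Miat differed most within the set, with Kcnq1ot1 lower relative to Miat in 5 of 5 lysates by 0.37 ± 0.14 on the log2 scale (mean ± SD, exact p = 0.0625, adjusted p = 0.194 over 28 pairs). Of 4 genes for splicing factors known to bind Miat, 0 passed the edgeR test (median 0.03).

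Snhg11 was the least abundant and the most variable, with 42.4, 58.4, 47.4, 23.9 and 69.8 CPM in IgG and 38.8, 52.5, 39.7, 9.94 and 60.4 CPM in Musashi IP. It was lower in all 5 lysates, most in lysate 6, where it had 205 counts in IgG and 101 in Musashi IP. The difference of -0.38 ± 0.17 did not pass the threshold (adjusted p = 0.119), and it was -0.19 without lysate 6. Of 17 other snoRNA host and mostly cytoplasmic long noncoding RNAs tested, 3 were higher and 2 lower (median -0.11). Over all long noncoding genes tested, 3.9% were higher and 11.1% lower. The mouse Norad gene 2900097C17Rik, a cytoplasmic RNA that binds Pumilio proteins, rose 5.72-fold from 156 ± 58.9 to 914 ± 416 CPM (adjusted p = 0.00336). Its longest transcript held 16 motif matches in 4915 bases (3.26 per kb), less dense than Rian. Averaged over its 2 annotated transcripts it had 1.63 per kb, against 2.87 for Rian. Among the other tested long noncoding genes of the motif search, the median was 1.60 per kb in 105 called higher and 1.64 in 294 called lower. In those of at least 3000 bases it was 1.29 in 25 called higher and 2.19 in 100 called lower. Whether motif density goes with the antibody difference was not tested. Snhg18 rose 2.34-fold (adjusted p = 0.0148), and Snhg8 rose 1.44-fold at an adjusted p of 0.0498, a call lost without lysates 3, 5, 6 or 7 in turn.

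Other nuclear long noncoding RNAs spread widely too. Of 12 tested, 1 was higher and 4 were lower, with a median of -0.35. Over all long noncoding genes tested, 3.9% were higher and 11.1% lower. Among those with at least 50 CPM on average the shares were 10.8% and 43.2%. The lists overlap. Snhg14, lower at -0.39 (adjusted p = 0.0221), is also counted among the other imprinted genes and the snoRNA hosts above, and Peg13 among the other imprinted genes. Peg13, an imprinted brain RNA, rose 2.28-fold (adjusted p = 0.00517). Xist fell to 0.57 times its IgG level (adjusted p = 0.00376) and Dleu2, a microRNA host, to 0.72 times (0.0128).

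**Figure D3:**
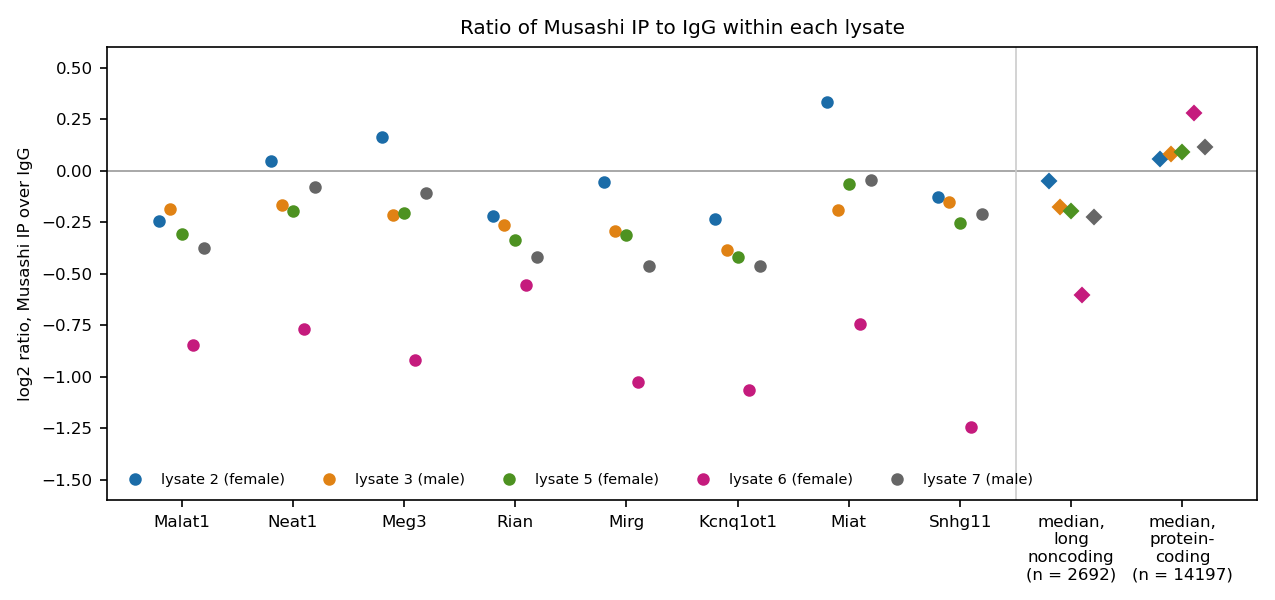
Log2 ratio of Musashi IP to IgG within each lysate for the 8 long noncoding RNAs (circles) and the median over all tested long noncoding and protein-coding genes (diamonds). Lysate 6 gave the lowest ratio of every RNA, and the median of long noncoding genes was lowest there too, at -0.61.

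Within lysates the 8 RNAs moved with their class. In lysates 2, 3, 5, 6 and 7 the median log2 ratio of the 8 was -0.09, -0.20, -0.28, -0.88 and -0.29. The median of long noncoding genes was -0.05, -0.18, -0.20, -0.61 and -0.23, and that of protein-coding genes was 0.05, 0.08, 0.09, 0.28 and 0.11. Lysate 6 was the lowest of the 5 for each of the 8 RNAs, and there its ratio was -1.25 for Snhg11 and -0.55 for Rian. Malat1, Mirg and Kcnq1ot1 lay below the long noncoding median in 5 of 5 lysates, Rian in 4, Meg3 and Snhg11 in 3, Miat in 2 and Neat1 in 1. When libraries were scaled on long noncoding genes, so that each RNA was read against its class, 0 of the 8 were called, where 0.944% of all genes were lower. On that scale, which moved the median of all genes by 0.24, Kcnq1ot1 stood at -0.27 (adjusted p = 0.0608), Mirg at -0.19, Malat1 and Snhg11 at -0.15, Rian at -0.12 and Meg3 at -0.02, while Neat1 and Miat turned positive at 0.01 and 0.10. In the main comparison 437 of the 2693 long noncoding genes had a lower log2 difference than Kcnq1ot1, 729 than Mirg, 868 than Malat1 and 1831 than Miat.

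Markers of cell types moved in both directions, where 18.5% of all genes tested were higher and 8.4% lower. Of 11 markers of pituitary hormone cells 2 were higher, Fshb (4.86-fold) and Pitx1 (2.75-fold), and 0 were lower. Of 4 red cell markers 3 were lower, with a summed level of 463 to 1254 CPM in IgG and 272 to 691 in Musashi IP, and of 4 immune markers 2 were lower (35.2 to 53.1 and 30.1 to 45.4 CPM). Of 7 neuronal markers 2 were higher (1118 to 1369 and 1188 to 1555 CPM), as were 2 of 4 tested markers of pituicytes and astroglia (78.0 to 135 and 110 to 138 CPM). Of 4 endothelial markers 0 were called (50.1 to 236 and 41.3 to 93.6 CPM). No marker of these lists was at 0 in all libraries. Both antibodies received equal portions of each lysate, so these are differences in the RNA recovered and not in the cells put in. How the marker differences relate to those of the long noncoding RNAs was not tested.

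Taken as a share of all counts, which needs no scaling factor, the 8 RNAs together held 7.20 ± 0.60% of an IgG library and 5.09 ± 1.4% of a Musashi IP library (mean ± SD, n = 5). By lysate the sum went from 7.44 to 6.58%, 7.70 to 6.33%, 6.50 to 4.69%, 7.74 to 3.16% and 6.61 to 4.69% (lysates 2, 3, 5, 6 and 7). It was lower in 5 of 5 lysates (exact two-sided sign-flip test, p = 0.0625, the smallest that 5 pairs allow; adjusted p = 0.0938 over the 8 RNAs and their sum). Of the mean change of -2.11 percentage points, Malat1 alone made up -1.49, so the sum mostly follows Malat1. Without lysate 6 the change of the sum was -1.49 points (exact p = 0.125, the smallest that 4 pairs allow). Over all 5 lysates, Malat1, Rian, Mirg, Kcnq1ot1 and Snhg11 each had the p values of the sum (exact p = 0.0625, adjusted p = 0.0938). Neat1 and Meg3 were lower in 4 lysates (exact p = 0.125 and 0.188), as was Miat (0.250). Of the counts in long noncoding genes, the 8 held 65.4 ± 4.26% in IgG and 62.4 ± 5.91% in Musashi IP, again lower in 5 of 5 lysates.

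The design also allows females to be set against males. For the female minus male difference of the antibody effect, 0 of 20550 genes passed the adjusted threshold in edgeR, the one tool run for it, and 187 had an unadjusted p under 0.05. The estimates for the 8 RNAs lay between -0.34 ± 0.35 (Snhg11) and -0.03 ± 0.19 (Rian), each with an adjusted p of 1. The share with an unadjusted p under 0.05 was below that threshold itself, and the comparison rests on 3 female and 2 male lysates. The lack of calls therefore does not show an equal antibody effect in both sexes. Between sexes within IgG, 4.5% of 20987 genes were called, but 0 of the 8 RNAs were. Within Musashi IP 2.84% of 21238 were called and again 0 of the 8. Snhg11 came nearest. Its female IgG libraries (42.4, 47.4 and 23.9 CPM) were all below the male ones (58.4 and 69.8 CPM), with a female minus male log2 difference of -0.77 ± 0.25 (adjusted p = 0.131). Its Musashi IP libraries were ordered in the same way (38.8, 39.7 and 9.94 against 52.5 and 60.4 CPM; -0.93 ± 0.47, adjusted p = 0.361). Without lysate 5 the IgG difference passed (-0.96, adjusted p = 0.0459). It did not pass without lysate 2 (-0.85, adjusted p = 0.0605) or lysate 6 (-0.52, 0.258). Leaving out male lysate 3 or 7 gave estimates of -0.89 and -0.63. Malat1, at 47287 ± 9059 CPM in 3 female and 45155 ± 2411 CPM in 2 male IgG libraries, differed between the sexes by less than its spread.

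The genes whose log2 CPM ran most like each RNA over the 10 libraries were looked up among tested genes of at least 8 CPM, as a description in which all points share the antibody and lysate structure. For Meg3 they were Cacna1a (Pearson r = 0.99), Srrt and Cul9, for Mirg Mindy4 (0.99), Git2 and Gm37127, and for Neat1 Gabbr1 (0.98), Sugp2 and Sh3glb2. For Rian they were Gm45294 (0.97), Gm43426 and Gm37138, and for Kcnq1ot1 Gm44187 (0.98), Gm17087 and Gm48585. Of these 6, Gm17087 is annotated as protein-coding and the others are TEC loci. Malat1 ran most like Usp11 (0.96), Irf3 and Drosha, Miat like Lipe (0.94), Akna and Trim46, and Snhg11 like Psmb2 (0.93), Xlr3b and H2-DMa.

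**Figure D4:**
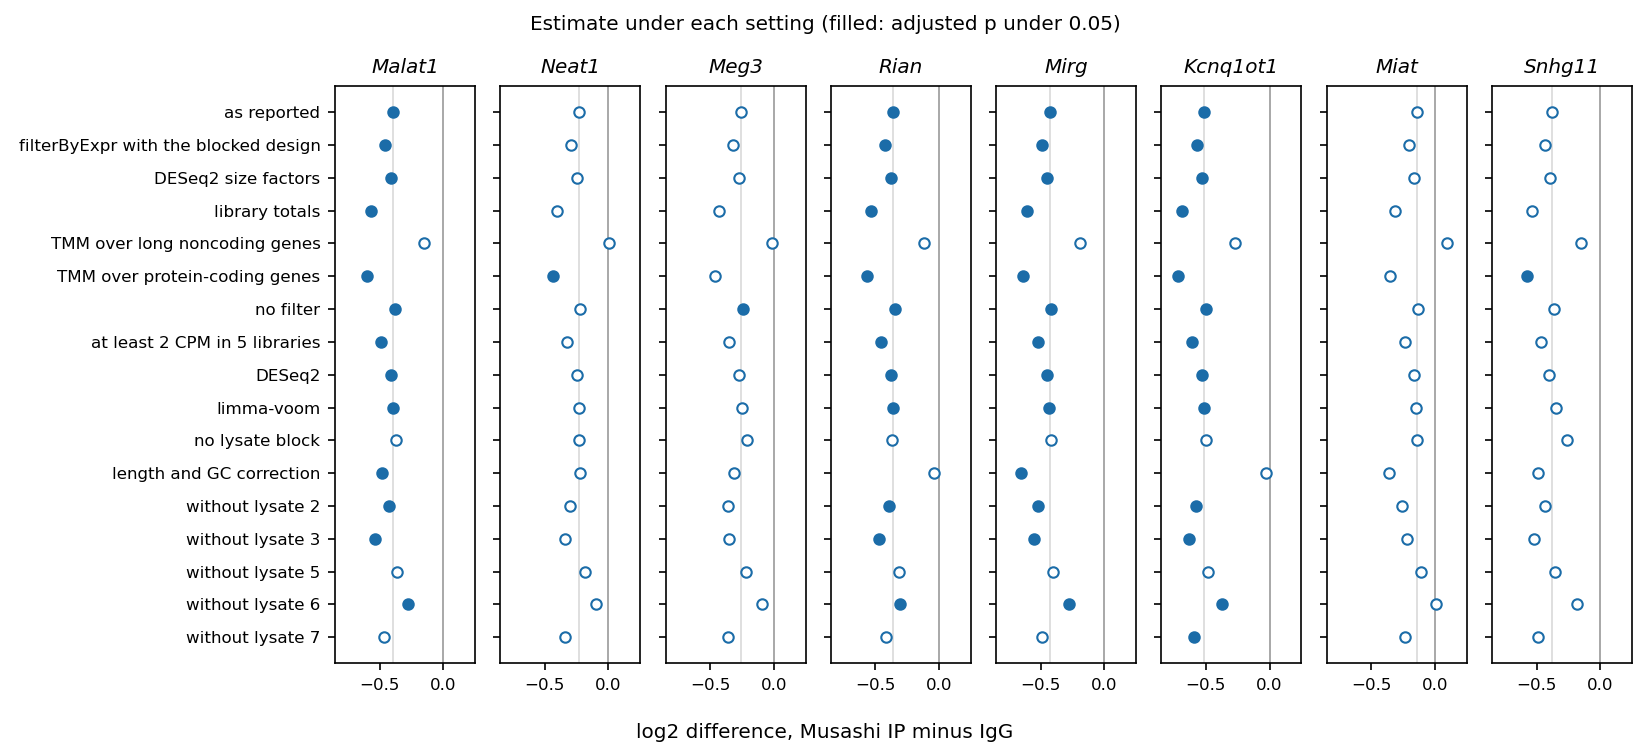
Log2 difference between Musashi IP and IgG (horizontal axes) of each long noncoding RNA as reported and under each alternative setting (rows); filled points have adjusted p under 0.05. Malat1, Rian, Mirg and Kcnq1ot1 are open in the rows for scaling on long noncoding genes, no lysate block and no lysate 5.

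Across 16 alternative settings the same 4 RNAs were called in 9. None of the 8 was called in 3: scaling on long noncoding genes, leaving out lysate 5, and a fit without the lysate block, which gave adjusted p values of 0.239 for Malat1, 0.154 for Rian, 0.0993 for Mirg and 0.0582 for Kcnq1ot1. Scaling on protein-coding genes added Neat1 (adjusted p = 0.0371) and Snhg11 (0.0297), and using no filter on low counts added Meg3 (0.0363). Malat1, Meg3, Rian, Mirg, Kcnq1ot1 and Snhg11 had a negative estimate in all 16 settings, Neat1 in 15 and Miat in 14.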

How the data were processed

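Libraries from 5 IgG and 5 Musashi IP precipitates were stranded, ribosome-depleted total RNA (TruSeq), per the labels' protocols. The authors deposited raw read counts per Ensembl gene, whole and not normalized. Per the submitters' processing notes, the tools were STAR 2.7.1a, Trimmomatic 0.39 and FastQC 0.11.8, and the build was GRCm39. Which program counted the reads, with which annotation and strand setting, is not given in the sources used here. Symbols, exon lengths and transcript sequences came from GENCODE M21 on an older build (GRCm38), so no coordinates are given; 52135 identifiers (94.1%) matched.

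Tests ran in R 4.3.3 with edgeR 4.0.16 (filterByExpr on the antibody groups, TMM, glmQLFit and glmQLFTest, Benjamini-Hochberg at 0.05), with limma 3.58.1 and DESeq2 1.42.0 as alternatives, and were tested on simulated data. The lysate was a block because each lysate was split between the antibodies; deviations of libraries of lysates 2, 3, 5, 6 and 7 correlated at 0.52, 0.68, 0.60, 0.19 and 0.78. The filter was first run on the blocked design and changed to the antibody groups after those values were seen. SE is the estimate divided by the square root of F. CPM are TMM-scaled, and lysate ratios have a prior count of 2. Lysates were precipitated on separate occasions. Named beside the 8 RNAs were the 3 called genes of at least 2 CPM with the largest difference from each list, and the 3 genes most alike (1 result is not reported here); the 8 RNAs and the lists were chosen with earlier results of these data known. Counts carry no molecular identifiers, so they are not independent molecules.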

Additional observations from a re-analysis of the deposited data

Results flagged for a closer look

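In groups of 5 values, a value was picked out when its gap to the nearest other exceeded 0.71 of the whole range (Dixon's critical value for 5). Of 24 groups looked at (3 for each of the 8 RNAs), 4 had such a value, where chance gives about 1 in 20 groups, and all 4 came from lysate 6. They were the log2 ratio of Musashi IP to IgG of Malat1 (-0.85), Kcnq1ot1 (-1.06) and Snhg11 (-1.25), and the log2 CPM of Snhg11 in Musashi IP (3.35). The 24 groups share libraries and are not independent.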

How the results depend on the processing

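The antibody comparison had 3804 genes higher and 1727 lower in Musashi IP. The lower number was 4107 with library totals, 5549 with TMM over protein-coding genes, 194 with TMM over long noncoding genes and 3214 with at least 2 CPM in 5 libraries. These scalings took the share of lower genes among the called ones from 31.2% to 56.6%, 65.0% and 4.61%, and moved the median of all genes by -0.18, -0.21 and 0.24. The stricter filter gave a share of 48.4%. Without the replicate block, which pairs the libraries of a lysate, 2407 were higher and 176 lower, and 0 of the 8 RNAs and 0 list genes were lower. Leaving out lysates in turn gave 2288 to 4188 higher and 182 (without lysate 5) to 2100 lower (597 without lysate 7), and 0 to 4 of the 8 RNAs. TMM over long noncoding genes called 0 of the 8, and the length and GC correction 2. Genes of the lists that were lower, 17 as reported, became 35 with library totals, 2 with TMM over long noncoding genes, 44 with TMM over protein-coding genes, 33 with at least 2 CPM, 27 with the length and GC correction, and 1 to 23 without single lysates. A filter told the blocked design, an alternative chosen after seeing the data, gave 27 list genes and the same 4 of the 8 RNAs. The cause of these shifts was not tested.

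Some estimates turned sign. With TMM over long noncoding genes Neat1 was at 0.0060 and Miat at 0.096, and Miat ranged from -0.26 to 0.0091 (without lysate 6) when lysates were left out. As shares of long noncoding counts, Neat1, Meg3 and Miat were higher in Musashi IP by 0.016, 0.375 and 0.025 percentage points.

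Sex differences rest on 3 and 2 lysates. Within IgG, 558 genes were higher and 387 lower in females; at least 2 CPM gave 301 and 246, and leaving out lysates 125 to 737 and 47 to 617, with 0 to 1 of the 8 RNAs called. Within Musashi IP, 403 were higher and 201 lower; at least 2 CPM gave 178 and 88, library totals 386 lower, and leaving out lysates 172 to 659 and 47 to 340. With library totals Malat1 in IgG turned to -0.033, and in Musashi IP Neat1 turned to -0.097 and Rian to -0.091. Without single lysates the IgG differences ran from -0.066 to 0.20 for Malat1, -0.11 to 0.86 for Meg3, -0.013 to 0.22 for Mirg and -0.56 to 0.13 for Miat. Those in Musashi IP ran from -0.44 to 0.083 for Malat1, -0.10 to 0.24 for Neat1, -0.21 to 0.76 for Meg3, -0.041 to 0.14 for Rian, -0.18 to 0.19 for Mirg, -0.19 to 0.18 for Kcnq1ot1 and -0.59 to 0.035 for Miat. The sex difference of the antibody effect ran from -0.35 to 0.0021 for Malat1, -0.36 to 0.048 for Neat1, -0.40 to 0.14 for Meg3, -0.18 to 0.065 for Rian, -0.29 to 0.19 for Mirg, -0.32 to 0.095 for Kcnq1ot1 and -0.29 to 0.25 for Miat. Of the 8 RNAs Snhg11 had the fewest counts, 101 to 697 per library. Of the 77 small RNA genes, 30 had no count in any library, and the reason was not tested.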
